A study of Mus musculus with 29 samples.

Results

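Brain and ovary metastases that carried the same number in their sample titles were compared through the T cell receptors transcribed in them. The 5 numbers sampled in both organs, 1, 3, 10, 12 and 13, were chosen by organ and number in the titles and by no measured value. They gave 10 brain and 10 ovary samples, 20 of the 29 samples of the series. All came from a mouse model in which Braf-mutated melanoma forms experimental metastases, and the series asks about an antibody against PD-L1, a ligand that restrains T cells, given ahead of an inhibitor of the MAPK pathway. Number 1 received trametinib, an inhibitor of the MAPK pathway kinase MEK, together with anti-PD-L1 (day 3). Number 3 was untreated (day 0, vehicle in the titles), and number 10 received the anti-PD-L1 lead-in alone (day 0). Number 12 had the same lead-in and then both agents (day 3), and number 13 received trametinib alone (day 3).

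Each number had 1 treatment in both organs, so a treatment and its number cannot be told apart, and the organ comparison ran across 5 treatments. No label gives strain or age, says that a number stands for 1 animal, or explains the parts of a number. The 2 parts of a number were therefore summed within an organ, which gave 5 brain and 5 ovary libraries. The p-values measure only the spread between these libraries. In the edgeR and limma fits below that spread is pooled in part over all features of a fit. A p-value there does not rest on the 5 pairs of its own feature alone. Library index numbers in the sample descriptions restart in each organ, so the organ cannot be told apart from the library preparation. The table holds receptor segments alone, so the organs could not be checked against tissue markers.

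A T cell receptor of the common kind pairs an alpha chain (TRA) with a beta chain (TRB). Each chain is assembled in the thymus from V and J gene segments, with a D segment between them in TRB, and the junction encodes the third complementarity-determining region (CDR3), the loop that reads most of the presented peptide. T cells that descend from 1 cell keep the same rearrangement, which makes the combination of V, J and CDR3, here called a clonotype, a natural tag of a clone, although common alpha chain rearrangements also arise independently in different clones and animals.

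The brain libraries were much shallower. They held 5969, 733, 930, 18282 and 1530 TRA counts for numbers 1, 3, 10, 12 and 13, against 45952, 59255, 80947, 51110 and 28528 in the ovary libraries. TRB counts lay between 622 and 12311 in the brain and between 35629 and 81190 in the ovary. The ovary exceeded the brain 19.5-fold in TRA and 22.3-fold in TRB counts (geometric means over 5 numbers), and the gap ran from 2.796-fold in TRA at number 12 to 87.0-fold in TRA at number 10. Fewer T cells, less receptor RNA per T cell and a difference in library preparation or sequencing cannot be told apart in such bulk samples. Shares of counts are the same on average after thinning to any depth, whereas numbers of clonotypes are not, so clonotype numbers are given as the average number in a random draw of equal size, 733 counts for TRA and 622 for TRB. Intervals cover counting error only and treat each count as independent. Whether counts stand for reads or molecules is not given, and for reads, which can be PCR copies, the intervals would be too narrow.

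The largest TRA clonotypes of a brain metastasis were found in the ovary metastasis of the same number, in most cases again among the largest. They are spelled here because they carry the overlap between the organs. In each the leading C and the trailing F are the conserved ends of the CDR3.
TRAV7D-2 with TRAJ49: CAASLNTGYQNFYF
TRAV7D-2 with TRAJ18: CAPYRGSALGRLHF
TRAV7D-2 with TRAJ23: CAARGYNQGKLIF
TRAV8-1 or TRAV8D-1 with TRAJ35: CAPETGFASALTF
TRAV8-1 or TRAV8D-1 with TRAJ24: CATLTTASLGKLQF

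The clonotype of TRAV7D-2 with TRAJ49 was the largest TRA clonotype of number 12 in both organs. It held 20.6% of the brain counts (exact 95% interval 19.999 to 21.18%, 3763 of 18282 counts), against 29.8% of the ovary counts. None of the other 4 ovary libraries held it, and 1 of the other 4 brain libraries did. The clonotype of TRAV7D-2 with TRAJ18 led both organs of number 3, with 6.003% of the brain counts (interval 4.40 to 7.97%, 44 counts) against 15.99% of the ovary counts, and no other library held it. At number 13 the clonotype of TRAV8-1 or TRAV8D-1 with TRAJ24 led the brain with 2.75% (interval 1.99 to 3.69%, 42 counts) and ranked 4 in the ovary with 2.51%.

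The clonotype of TRAV7D-2 with TRAJ23 behaved otherwise, being present in all 10 libraries. It was the largest TRA clonotype of both organs at number 10. At brain number 1 it was level, at 218 counts, with a clonotype of TRAV8-1 or TRAV8D-1 and TRAJ35 that was found in number 1 alone (3.65% of brain and 1.53% of ovary counts). Its share was 3.65%, 3.27%, 3.44%, 3.70% and 0.327% in brain numbers 1, 3, 10, 12 and 13, against 2.02%, 4.01%, 7.46%, 1.36% and 0.403% in the ovary, so number 13 was lowest in both organs. One further TRA clonotype was present in all 10 libraries, a TRAV11N chain with TRAJ18 and a CDR3 of 15 residues. TRAV11 with TRAJ18 forms the invariant alpha chain of natural killer T cells, which see lipids on CD1d. This clonotype led the ovary at numbers 1 and 13, and its share was 0.888%, 5.59%, 0.430%, 0.487% and 2.61% in the brain, against 2.89%, 1.55%, 1.18%, 2.32% and 5.05% in the ovary. Most clonotypes were private. Of 18499 TRA clonotypes, 89.4% were found in 1 of the 10 libraries, as were 93.4% of 23629 TRB clonotypes.

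Overlap between organs was measured with the Morisita-Horn index, which weighs each clonotype by its share and reads 0% for disjoint and 100% for identical repertoires. For TRA it was 58.2%, 58.3%, 40.1%, 90.4% and 47.6% between brain and ovary of numbers 1, 3, 10, 12 and 13, against 1.17% to 38.1% in the 20 combinations of a brain with the ovary of another number. Every matched value was above every unmatched one, though by little (40.1% against 38.1%). The values overlapped with part 1 alone (lowest matched 13.8%, highest unmatched 25.6%), with part 2 alone (39.2% and 41.4%) and without invariant natural killer T chains (34.6% and 37.2%). The mean was 58.9% for matched and 11.2% for unmatched numbers, and no other of the 120 ways of matching the numbers gave a mean as high (exact one-sided permutation test, p = 0.00833, the smallest that 5 numbers allow, adjusted p over both chains = 0.00833).

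For TRB the index was 51.4%, 27.6%, 22.5%, 52.4% and 40.7% in the same order, against 0.0544% to 3.12% for unmatched numbers, and again the values did not overlap. The means were 38.9% and 0.682% (exact one-sided permutation test, p = 0.00833, adjusted p = 0.00833). The 2 TRA clonotypes found in all 10 libraries had no TRB counterpart, since 0 TRB clonotypes were found in all 10. With the invariant natural killer T chains left out, the TRA means were 56.9% and 7.04%. Number 12 had the highest TRA value, and without it the TRA means were 51.1% for matched and 16.2% for unmatched numbers. The index was taken without thinning, and number 12 had the deepest brain library (18282 TRA counts). A different measure, the number of shared clonotypes at equal depth, does not weigh a clonotype by its share. It was 84.6, 44.0, 35.4, 59.6 and 69.0 for TRA on average at numbers 1, 3, 10, 12 and 13, and number 12 was not highest. The index itself was not taken at equal depth, so the part that depth plays in the value of number 12 was not tested.

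**Figure D1:**
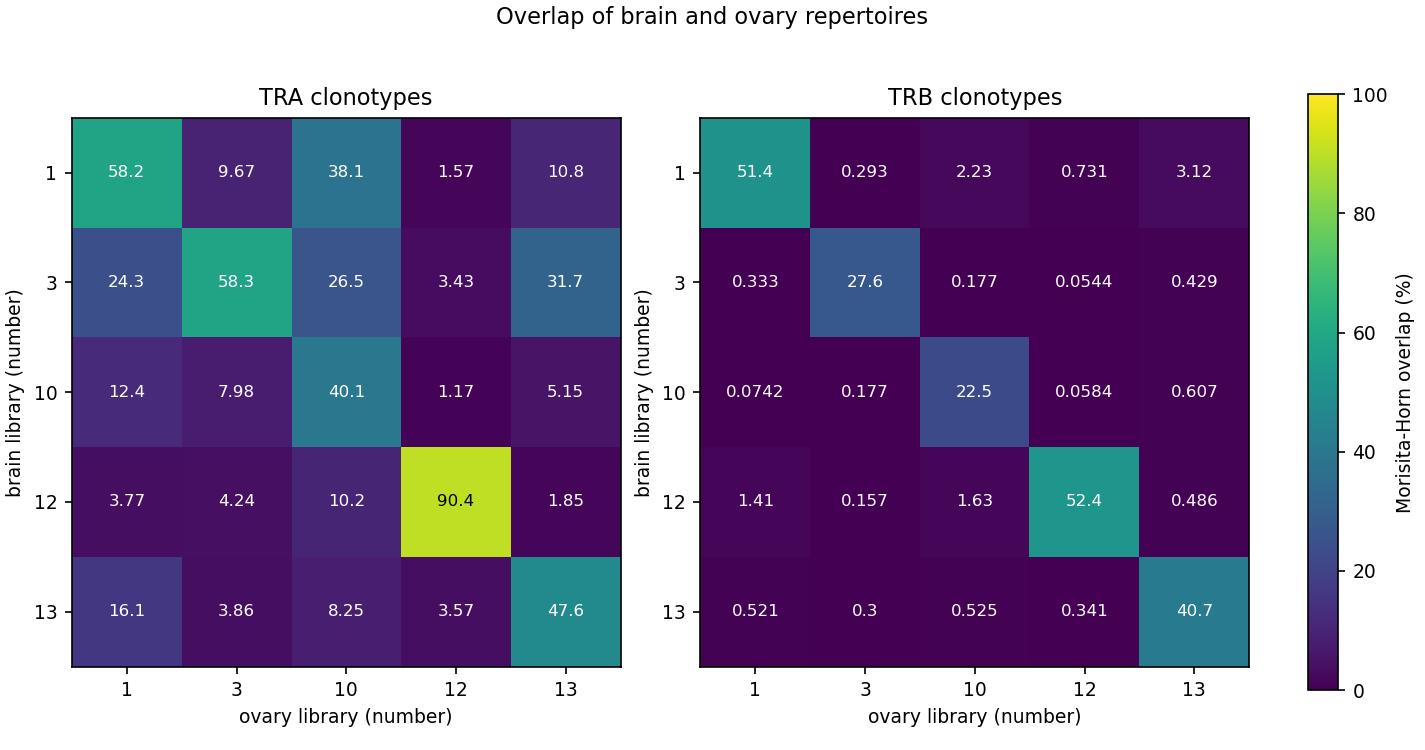
Morisita-Horn overlap (percent) of each brain library (rows) with each ovary library (columns), by the numbers in the titles, for TRA on the left and TRB on the right. The matched numbers on the diagonal run from 40.1% to 90.4% for TRA and from 22.5% to 52.4% for TRB, above every other cell of their panel.

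The overlap was not confined to the largest clone. Between brain and ovary of the same number 381, 100, 100, 478 and 181 TRA clonotypes were shared, which is 27.2%, 43.7%, 37.5%, 22.3% and 38.9% of the brain's TRA clonotypes and 12.48%, 2.51%, 2.07%, 21.1% and 7.35% of the ovary's. These shared clonotypes held 58.2%, 60.2%, 46.7%, 68.9% and 56.1% of the brain's TRA counts. An ovary of another number accounted for 7.10% to 17.2% of them. At equal depth a matched pair shared 58.5 TRA clonotypes on average against 8.25 for an unmatched pair, and 51.0 against 2.81 TRB clonotypes. Of the 10 largest ovary TRA clonotypes, 6 to 10 were found in the brain of the same number and 1 to 4 in the brain of another.

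**Figure D2:**
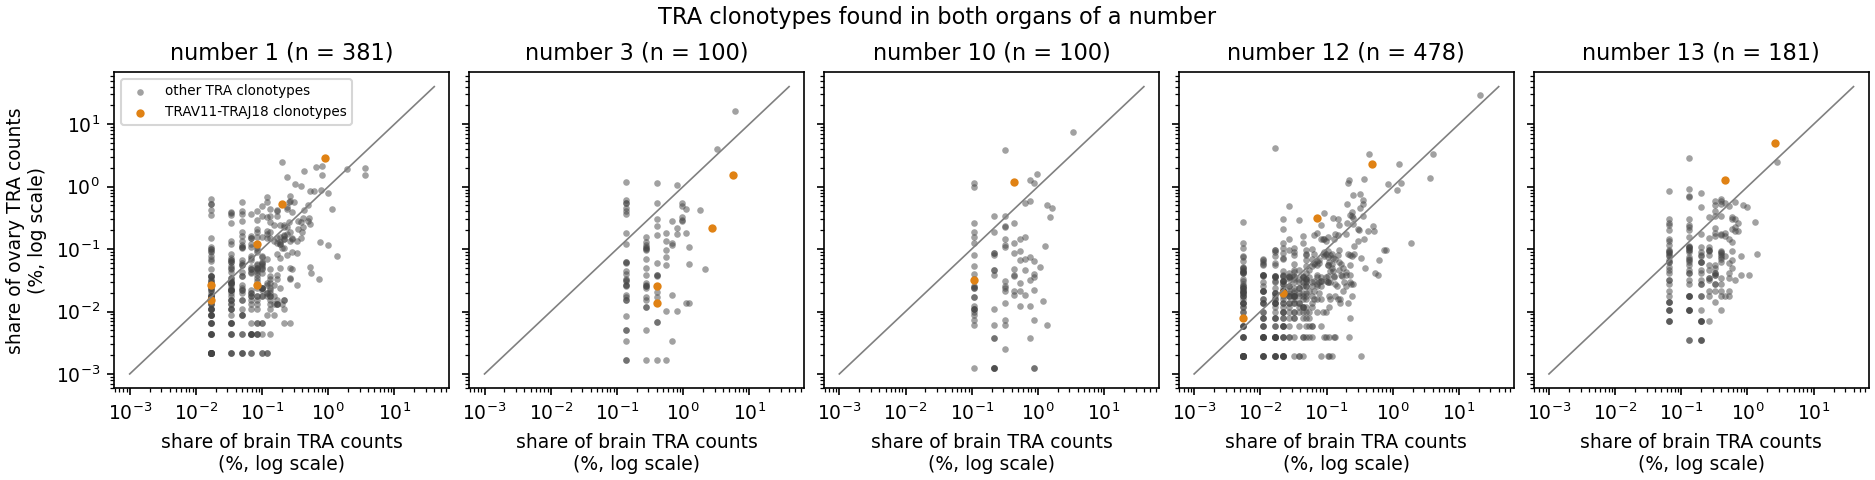
TRA clonotypes found in both organs of a number, by their share of brain (horizontal) and ovary (vertical) TRA counts in percent on log scales, with invariant natural killer T chains in orange and a grey line at equal shares. The point at the upper right of number 12 is the clonotype with 20.6% of brain and 29.8% of ovary counts, and the left edge of each cloud is 1 brain count.

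The brain parts of a number overlapped less with each other than the ovary parts did at 4 of 5 numbers. TRA overlap between part 1 and part 2 was 68.4%, 38.5%, 7.86%, 94.8% and 31.3% in the brain, against 56.6%, 97.1%, 81.9%, 95.3% and 61.7% in the ovary. At number 10 the brain parts overlapped less with each other (7.86%) than their sum did with the ovary (40.1%). These brain parts held 230 and 700 TRA counts, and part 1 and part 2 of ovary number 10 held 51549 and 29398. Whether the depth sets these values was not tested.

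Joining segments separated the organs in 1 case. TRBJ2-1, a segment of the second TRBJ cluster, was lower in the brain at every number. It held 10.2%, 5.63%, 6.503%, 7.98% and 9.21% of brain TRB counts for numbers 1, 3, 10, 12 and 13, against 14.3%, 11.3%, 12.1%, 19.5% and 12.96% of ovary TRB counts. The highest brain share was below the lowest ovary share. The mean was 7.91% ± 1.88 in the brain and 14.03% ± 3.23 in the ovary (SD, n = 5 each), a log2 difference of -0.83 ± 0.18 (SE), with an adjusted p of 0.0148 in edgeR's quasi-likelihood test with the number as a block.

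It was the 1 J segment of 53 tested that passed as lower in the brain (1.89%), and none passed as higher (0%). At an unadjusted p under 0.05 the same edgeR test gave 5 higher and 3 lower segments, and DESeq2 called 2 higher and 2 lower. The median log2 difference over all J segments was 0.15. TRBJ2-1 no longer passed without number 1 (-0.92, adjusted p = 0.0721) or without number 12 (-0.71, adjusted p = 0.0919). It also did not pass with each clonotype counted once at equal depth (-0.44, adjusted p = 0.108) or without the largest clonotype of each library (-0.57, adjusted p = 0.233), nor without the number as a block (-0.82, adjusted p = 0.179). With part 1 alone, and with all 10 brain numbers, no J segment passed as lower. TRBJ2-1 thus failed to pass in 7 of 16 alternatives, always with the same sign.

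Many clonotypes made up the TRBJ2-1 share. The brain libraries held 166, 20, 30, 204 and 54 TRBJ2-1 clonotypes and the ovary libraries 609, 573, 765, 367 and 476. The largest stood out at ovary number 12, where 1 clonotype of TRBV1 with TRBJ2-1 held 9.83% of all TRB counts, against 0.260% in brain number 12 (exact 95% interval 0.178 to 0.367%, 32 counts).
TRBV1 with TRBJ2-1: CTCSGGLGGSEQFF
With the largest TRBJ2-1 clonotype of each library set aside, the remaining TRBJ2-1 share was 9.27%, 4.86%, 5.70%, 7.12% and 8.59% in the brain, against 11.4%, 10.2%, 11.2%, 10.7% and 11.3% in the ovary. These values did not overlap either.

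None of the other TRBJ2 segments passed the threshold. TRBJ2-7, the most used TRBJ segment, averaged 22.8% ± 4.07 in the brain and 23.6% ± 3.64 in the ovary (SD, n = 5 each). TRBJ2-2, TRBJ2-3 and TRBJ2-4 had higher means in the brain (4.92%, 10.7% and 9.49%) than in the ovary (4.39%, 9.205% and 8.499%), and TRBJ2-5 averaged 8.91% in the brain and 9.29% in the ovary. The cluster as a whole held 63.3%, 63.2%, 63.5%, 69.7% and 63.7% of brain TRB counts, against 67.3%, 67.6%, 68.6%, 71.9% and 69.9% of ovary TRB counts. It was lower in the brain at 5 of 5 numbers, with a mean difference of -4.37 percentage points (SD of differences 1.47). The exact two-sided sign-flip test gave p = 0.0625, the smallest that 5 pairs allow, and adjusted p = 0.188 over 9 single measures, so this difference did not pass. It was -1.76 points with each clonotype counted once and -1.67 with all 10 brain numbers. TRBJ1-4 of the first cluster averaged 8.32% ± 2.54 in the brain and 6.21% ± 2.28 in the ovary (SD, n = 5 each).

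**Figure D3:**
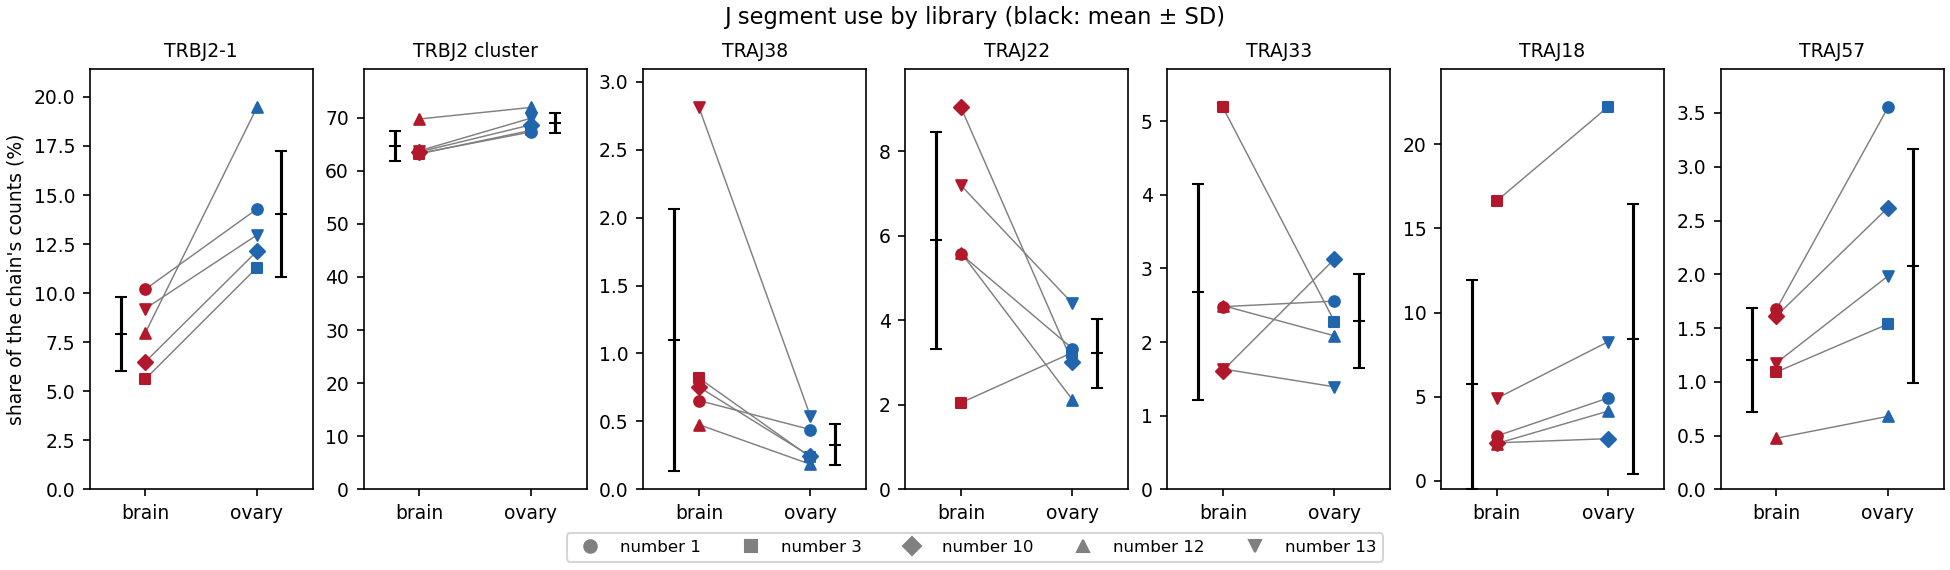
Share of the chain's counts (percent) taken by 6 J segments and the TRBJ2 cluster in each of the 5 brain (left) and 5 ovary (right) libraries, with symbols for the numbers and black bars for mean ± SD. In the TRBJ2-1 panel, the one that passed the test, every brain point lies below every ovary point.

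No TRAJ segment passed. The nearest was TRAJ38, with 0.653%, 0.819%, 0.753%, 0.476% and 2.81% of brain TRA counts, against 0.440%, 0.236%, 0.243%, 0.184% and 0.536% of ovary TRA counts, higher in the brain at 5 of 5 numbers (log2 1.53 ± 0.45 SE, edgeR adjusted p = 0.0700). The brain values rested on 6 to 87 counts per library. TRAJ22 had 5.56%, 2.05%, 9.03%, 5.60% and 7.19% in the brain, against 3.33%, 3.24%, 3.001%, 2.12% and 4.40% in the ovary, and number 3 was the exception among the 5 (log2 0.82 ± 0.29 SE, edgeR adjusted p = 0.151). Without number 3 TRAJ22 passed, with a log2 difference of 1.11 and an adjusted p of 0.00180. It passed in 2 of 16 alternatives, over which the log2 difference ran from 0.19 to 1.11. Of TRA clonotypes, TRAJ22 made up 6.57%, 3.49%, 6.74%, 7.04% and 6.88% in the brain, against 6.06%, 5.63%, 6.35%, 5.82% and 6.21% in the ovary. These values overlap.

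TRAJ18, the J segment of the invariant natural killer T chain, had 2.66%, 16.6%, 2.26%, 2.22% and 4.90% in the brain, against 4.93%, 22.2%, 2.51%, 4.15% and 8.27% in the ovary. It was lower in the brain at 5 of 5 numbers, though not past the threshold (log2 -0.64 ± 0.19 SE, edgeR adjusted p = 0.0700). The sign turned when the largest clonotype of each library was left out (0.06, adjusted p = 0.963). The leading clonotype carries TRAJ18 in both organs of number 3, and in the ovary but not the brain of numbers 1 and 13. TRAJ57 averaged 1.21% ± 0.483 in the brain and 2.07% ± 1.09 in the ovary (SD, n = 5 each, edgeR adjusted p = 0.328).

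The shares of invariant natural killer T chains overlapped between the organs. TRAV11 family chains with TRAJ18 made up 1.29%, 9.14%, 0.538%, 0.629% and 3.07% of brain TRA counts, against 3.804%, 1.87%, 1.52%, 2.99% and 6.99% of ovary TRA counts, so number 3 was higher in the brain and the other 4 numbers were lower. TRAJ33, the J segment of mucosal-associated invariant T cells, which see vitamin B metabolites on MR1, averaged 2.68% ± 1.46 in the brain and 2.29% ± 0.636 in the ovary (SD, n = 5 each). The full invariant combination of TRAV1 with TRAJ33 had 0 of 27444 brain counts, which allows a share of up to 0.0109%, against 94 of 265792 ovary counts. The ovary counts lay in 4 of the 5 libraries, with none at number 12, which gave most of the brain counts. Without number 12 the brain limit was 0.0327% and the ovary share 0.0438%, and without number 13 they were 0.0116% and 0.01897%. Within each number the brain limit was above the ovary share, so no matched pair could show an absence in the brain. The brain limits were 0.0503%, 0.409%, 0.323%, 0.0164% and 0.196% for numbers 1, 3, 10, 12 and 13. The ovary shares were 0.0413%, 0.0169%, 0.0198%, 0% and 0.172%. No gamma or delta chain rows were present, so gamma delta T cells could not be compared.

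The place of the TRAJ segment in its locus was also compared. TRAJ segments are numbered backwards, so that a high number lies near the V segments and is used in the first rearrangements of a thymocyte. The mean TRAJ number was 28.2, 27.5, 29.4, 32.2 and 28.7 in the brain, against 28.9, 26.6, 28.9, 34.7 and 28.3 in the ovary, and number 12 was highest in both organs (mean difference -0.28, SD of differences 1.36, n = 5 pairs, exact two-sided sign-flip p = 0.812).

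No V name passed the threshold among 111 tested in edgeR, in either direction (0% higher and 0% lower). At an unadjusted p under 0.05 there were 15 higher and 5 lower, and DESeq2 called 8 higher and 0 lower. The nearest with a single name was TRBV19, with 8.87%, 11.4%, 12.7%, 7.27% and 13.9% of brain TRB counts, against 7.33%, 6.52%, 7.57%, 4.83% and 6.51% of ovary TRB counts. It was higher in the brain at 5 of 5 numbers (log2 0.70 ± 0.19 SE, edgeR adjusted p = 0.0505), and without number 12 it passed (0.73, adjusted p = 0.0482). TRBV19 passed in 2 of 16 alternatives and did not pass in the other 14, with log2 differences from 0.59 to 0.85.

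Several of the other V names with low p were joined names, in which the deposited table gives several TRAV segments for 1 chain. The name joining TRAV7-4, TRAV7D-4 and TRAV7N-4 averaged 1.09% ± 0.517 in the brain and 0.224% ± 0.0983 in the ovary, and the name joining TRAV7-3 and TRAV7D-3 averaged 1.89% ± 1.71 in the brain and 0.503% ± 0.330 in the ovary (SD, n = 5 each). The edgeR adjusted p was 0.0505 for both. The name joining TRAV7-2 and TRAV7D-2 averaged 0.342% ± 0.274 in the brain and 0.0447% ± 0.0126 in the ovary, and a name joining several TRAV6 copies 0.158% ± 0.157 in the brain and 0.0182% ± 0.008003 in the ovary, at the same adjusted p. Joined names as a whole took 41.4%, 38.5%, 41.6%, 26.2% and 41.8% of brain TRA counts, against 37.7%, 29.4%, 33.1%, 18.4% and 32.9% of ovary TRA counts, higher in the brain at every number. The whole TRAV7 family, single and joined names together, averaged 26.1% ± 8.49 in the brain and 28.2% ± 13.1 in the ovary (SD, n = 5 each). With V segments pooled into families, 0 of 40 passed in edgeR, and 4 had an unadjusted p under 0.05. The part that naming plays in the joined names was not tested.

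Mean CDR3 length did not pass the test. TRA CDR3s averaged 13.5, 13.5, 13.5, 13.7 and 13.7 residues in the brain, against 13.6, 13.7, 13.5, 13.9 and 13.7 in the ovary (mean difference -0.10 residues, SD of differences 0.0779, lower in 4 of 5 pairs, exact two-sided sign-flip p = 0.125). TRB CDR3s averaged 13.88 ± 0.0936 residues in the brain and 13.95 ± 0.0606 in the ovary (SD, n = 5 each, exact sign-flip p = 0.188).

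Differences lay in the short classes. TRA CDR3s of 11 residues made up 3.28%, 4.64%, 3.01%, 3.07% and 4.31% of brain TRA counts, against 2.71%, 1.42%, 2.28%, 1.52% and 1.97% of ovary TRA counts, and the organs did not overlap. The log2 difference was 0.89 ± 0.26 (SE), with an edgeR adjusted p of 0.00920. TRB CDR3s of 9 residues made up 0.131%, 0.804%, 0.426%, 0.260% and 0.906% of brain TRB counts, against 0.0720%, 0.146%, 0.107%, 0.123% and 0.149% of ovary TRB counts. That is 4 to 32 counts per brain library (log2 1.75 ± 0.52 SE, edgeR adjusted p = 0.00920). They came from 3, 1, 2, 4 and 3 clonotypes in brain numbers 1, 3, 10, 12 and 13. Part 1 of brain numbers 1, 3 and 10 and part 2 of brain number 13 held none. With the largest 9-residue clonotype of each library set aside, brain number 3 held 0%, against 0.0555% in ovary number 3. The other numbers stayed higher in the brain. The 11-residue TRA and 9-residue TRB classes were the 2 of 25 length classes that passed as higher in the brain (8%). Their p-values draw on the spread pooled over the length classes as well as on their own 5 pairs.

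The class that passed as lower (1 of 25, 4%) was TRB CDR3s of 8 residues, also with an edgeR adjusted p of 0.00920. It had 0 of 19763 brain counts, which allows a share of up to 0.0152%, and 67 of 247484 ovary counts, with 20, 16, 11, 20 and 0 counts in ovary numbers 1, 3, 10, 12 and 13. These counts came from at most 3 clonotypes per library. Without number 12, which gave most of the brain counts, the brain limit was 0.0403%, above the ovary share of 0.0228%, so no difference was detectable at that depth. DESeq2 did not call this class (adjusted p = 0.767). TRB CDR3s of 6 residues had 0 counts in the brain and 24 in the ovary, and those of 19 residues 4 in the brain and 171 in the ovary (edgeR adjusted p = 0.0677 and 0.289).

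The short TRA class was made of different clonotypes in different libraries. At number 1 the largest was the same in both organs, with 0.988% of brain and 0.777% of ovary counts.
TRAV13D-1 with TRAJ43: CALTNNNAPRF
At number 12 the largest clonotype of the class held 1.87% of brain TRA counts, the greater part of the 3.07% of the class.
TRAV9D-1 with TRAJ30: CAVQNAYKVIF
The largest 11-residue clonotypes of brain numbers 3 and 10 held 1.501% and 1.40%. Counted as clonotypes rather than counts, the class made up 3.35%, 3.93%, 2.996%, 2.94% and 2.796% of brain TRA clonotypes, against 3.14%, 2.99%, 3.13%, 3.13% and 3.17% of ovary TRA clonotypes, and these values overlap. With each clonotype counted once at equal depth, the log2 difference was 0.12 and the adjusted p was 0.945. The call of the 11-residue class was also lost without number 1 (1.06, adjusted p = 0.0542), number 3 (0.71, 0.177), number 12 (0.84, 0.116) or number 13 (0.83, 0.0869). That of the 9-residue TRB class was lost without number 1 (1.96, adjusted p = 0.0614), number 3 (1.61, 0.249), number 10 (1.72, 0.0967) or number 13 (1.51, 0.130), and that of the 8-residue TRB class was lost without any 1 of the 5 numbers (adjusted p from 0.0802 to 0.469). Without the number as a block, edgeR called 0 length classes, and 2 had an unadjusted p under 0.05.

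**Figure D4:**
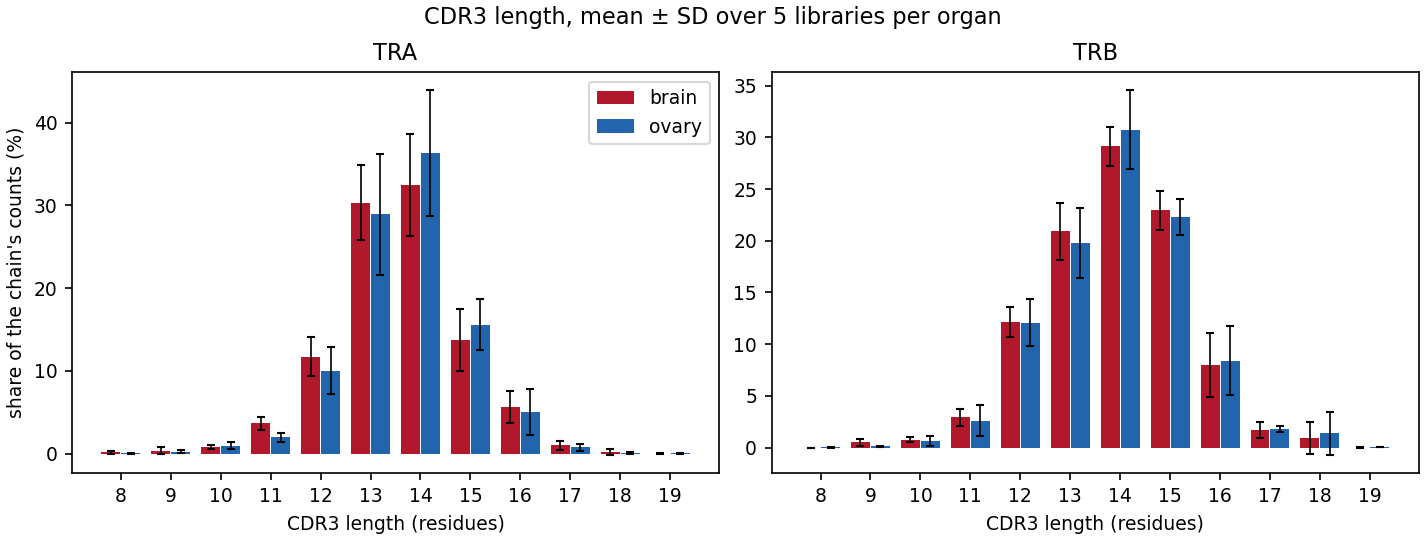
Share of the chain's counts (percent) by CDR3 length in residues, for TRA on the left and TRB on the right, as means of 5 brain libraries (left bar) and 5 ovary libraries (right bar) with SD as error bars. At 11 residues the TRA bars stand at 3.66% in the brain and 1.98% in the ovary, while the main classes of 13 and 14 residues overlap within their SD.

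Residue use was compared in the middle of the CDR3, with the first 3 and last 3 residues left out because they come mostly from the V and J segments. Isoleucine passed in TRB, with 0.911%, 1.24%, 1.48%, 0.697% and 1.13% of middle residues in the brain, against 0.722%, 0.882%, 0.815%, 0.456% and 0.605% in the ovary. It was higher in the brain at 5 of 5 numbers, though the ranges of the organs overlap (log2 0.65 ± 0.10 SE, limma adjusted p = 0.0109). It was 1 of 35 residue classes tested that passed as higher in the brain (2.86%), and none passed as lower (0%), where limma gave 4 at an unadjusted p under 0.05. Without number 12 the adjusted p was 0.0885 at a log2 difference of 0.65, and without the number as a block it was 0.341.

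TRBV19 chains carried 58.8% ± 6.51 of that isoleucine in the brain and 54.4% ± 10.9 in the ovary (SD, n = 5 each). Within TRBV19 chains isoleucine made up 5.90% ± 0.789 of middle residues in the brain and 5.97% ± 1.60 in the ovary. Outside them it made up 0.494% ± 0.115 in the brain and 0.330% ± 0.0784 in the ovary, with the brain higher at 5 of 5 numbers. With TRBV19 chains left out, 0 residue classes passed in limma, and 6 had an unadjusted p under 0.05, but isoleucine was then under the floor of 0.5% and could not be fitted, so its difference outside TRBV19 was not tested. Leading TRBV19 clonotypes of up to 14 residues held an isoleucine in brain numbers 1 and 13 and ovary numbers 3 and 10. Those of brain number 12 and ovary numbers 1, 12 and 13 held none. The ones of brain number 13 and ovary number 3 are spelled here.
TRBV19 with TRBJ2-7: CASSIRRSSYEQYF
TRBV19 with TRBJ1-3: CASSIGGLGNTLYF

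The other residues near the threshold did not pass. Tryptophan in TRA averaged 1.07% ± 0.375 in the brain and 0.673% ± 0.0452 in the ovary (SD, n = 5 each, limma adjusted p = 0.122), and TRAJ22 chains carried 72.1% ± 15.2 of it in the brain and 62.7% ± 13.1 in the ovary. Leucine averaged 2.63% ± 1.21 in the brain and 3.40% ± 1.76 in the ovary in TRA, and 4.28% ± 0.259 in the brain and 5.27% ± 0.821 in the ovary in TRB (limma adjusted p = 0.107 for both). It was lower in the brain at 5 of 5 numbers in both chains. Lysine in TRB averaged 0.595% ± 0.198 in the brain and 0.422% ± 0.117 in the ovary (limma adjusted p = 0.159).

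**Figure D5:**
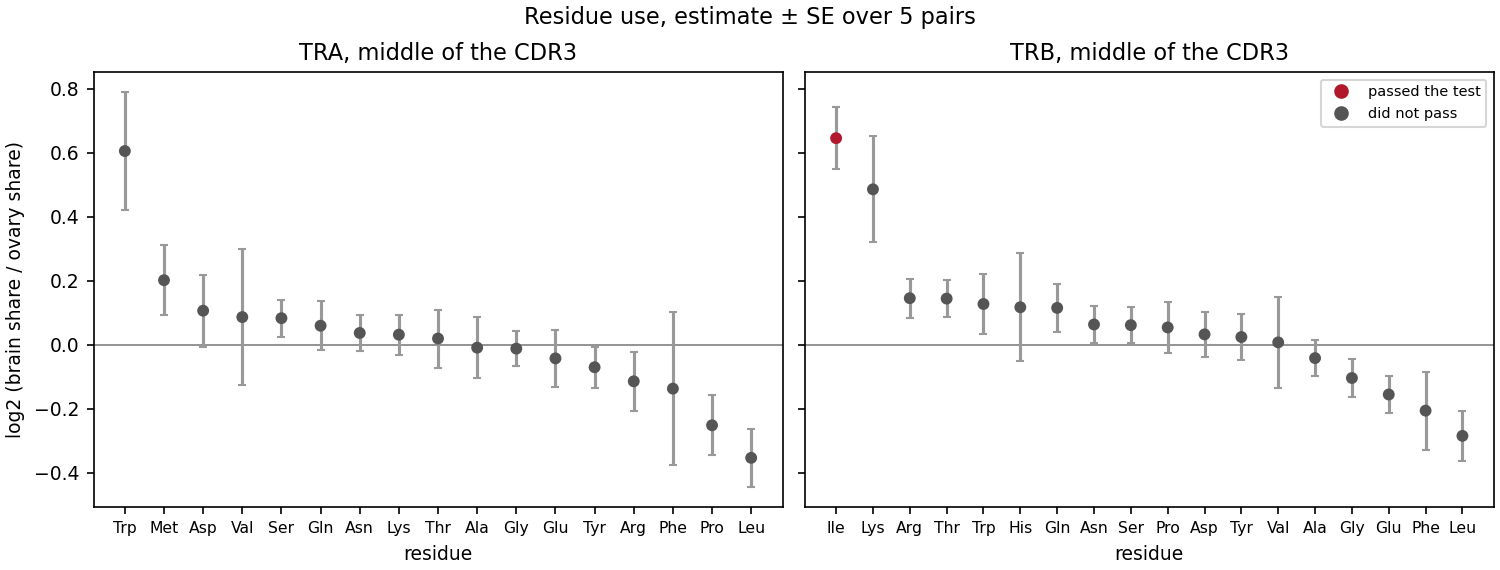
Difference in residue use between brain and ovary in the middle of the CDR3, as log2 of brain share over ovary share with its SE over 5 pairs, ordered by size within TRA (left) and TRB (right). Isoleucine in TRB, at 0.65, is the point that passed, while tryptophan (0.61) and leucine (-0.35) mark the ends of the TRA panel.

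The charge of the TRB CDR3 did not pass the adjusted threshold. The net charge of the TRB CDR3 middle, counting lysine and arginine as plus and aspartate and glutamate as minus, was -0.79, -0.69, -0.76, -0.87 and -0.63 in the brain, against -0.90, -0.78, -0.94, -0.92 and -0.89 in the ovary. It was less negative in the brain by 0.138 charges (SD of differences 0.0812), at 5 of 5 numbers (exact two-sided sign-flip p = 0.0625, adjusted p = 0.188). Mean Kyte-Doolittle hydropathy of TRB, where lower values are more hydrophilic, was -1.24 ± 0.0293 in the brain and -1.18 ± 0.0526 in the ovary, lower in the brain in 5 of 5 pairs (exact sign-flip p = 0.0625, adjusted p = 0.188). With TRBJ2-1 chains left out the charge difference was 0.128 (5 of 5 numbers), whereas it was 0.0289 (3 of 5) with 4 residues trimmed at each end and 0.0883 (4 of 5) with part 2 alone. The hydropathy difference was -0.00975 over the whole CDR3 (lower at 2 of 5) and -0.0226 without the largest clonotype (lower at 3 of 5).

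TRA charge was 0.669 ± 0.0793 in the brain and 0.712 ± 0.165 in the ovary, and TRA hydropathy was -1.46 ± 0.0786 in the brain and -1.42 ± 0.102 in the ovary (SD, n = 5 each, exact sign-flip p = 0.5 for charge and 0.125 for hydropathy).

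At equal depth the brain was not shown to be poorer in clonotypes than the ovary. In 733 counts, 434, 229, 245, 357 and 345 TRA clonotypes were drawn on average in the brain, against 368, 377, 378, 254 and 409 in the ovary, so the brain had more at numbers 1 and 12 and fewer at the other 3. The mean log2 difference was -0.17 (SD of differences 0.529, n = 5 pairs, exact two-sided sign-flip p = 0.5).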

How the data were processed

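Libraries were prepared from RNA with a QIAseq kit for immune repertoires, as the labels' protocols state. The authors deposited 1 table of whole-number counts per chain, V name, J name and CDR3, with a column per sample and no normalization. Which aligner and clonotype caller made it is not given in the sources used here, and whether counts stand for reads or molecules is also not given. The submitters' processing notes name the build GRCh38, which is human, so no coordinates are given. All 53 J names matched RefSeq mouse symbols (GRCm38.p6).

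CDR3s with an unresolved residue (0.0358% of counts in the 20 samples) were left out. J, V and length counts went into edgeR 4.0.16 (quasi-likelihood test) with the chain total of each library as offset and the number as a block, for features that reached 10 counts in 2 or more libraries. DESeq2 1.42.0 was an alternative. Residue shares were fitted with limma 3.58.1 on log2 percent, with 0.5 added to residue counts, for residues of at least 0.5% on average. P-values were adjusted by Benjamini-Hochberg over each fit, with a threshold of 0.05. Single measures were tested by exact sign flips over 5 pairs, and overlap by exact permutation of the matching. Clonotype numbers at equal depth are averages over all possible draws without replacement. R 4.3.3, Python 3.11.15, numpy 2.4.6, pandas 2.3.3, scipy 1.17.1 and matplotlib 3.10.9 were used, and the fits were tested on simulated data.

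Named were features past the threshold, or the 5 of lowest p where fewer than 5 passed, with TRAJ18, TRAJ33, the TRBJ clusters and the largest TRA clonotypes of each number. CDR3s over 14 residues were not spelled. Other V and TRBJ names, and the leading clonotypes of TRBJ2-1, TRBV19 and the 11-residue class, were chosen after their values were seen. The members and lists were chosen with earlier results of these data known. Alternatives were no block, each number left out, each part alone, no filter, TMM scaling, each clonotype once, no largest clonotype, no single counts, other CDR3 ends and all 10 brain numbers. Pooled V families and fits without TRBJ2-1, TRBV19, TRAJ22 or TRAJ18 chains were added after seeing the data.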

Additional observations from a re-analysis of the deposited data

Results flagged for a closer look

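Among 60 groups of 5 libraries, 10 held a library whose distance to its nearest neighbour was large against the range of its group. The cut-off gives about 1 in 20 for independent values of a normal distribution. Many groups were features named for their low p, and the groups share libraries, so this rate does not apply to the 60 groups. Brain number 3, with 733 TRA counts, stood apart 4 times. It held 16.6% TRAJ18 (next highest brain library 4.90%), 5.18% TRAJ33 (next 2.49%), 0.819% of the name joining TRAV7-2 and TRAV7D-2 (next 0.327%) and 4.91% of the name joining TRAV7-3 and TRAV7D-3 (next 1.52%). Ovary number 3 was also highest in its organ for TRAV7-3 joined with TRAV7D-3, at 1.07% against 0.431%.

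TRAJ38 held 2.81% in brain number 13, where the next brain library had 0.819%. The TRBJ2 cluster held 69.7% in brain number 12, where the next had 63.7%. In ovary number 12 the mean TRAJ number was 34.7 (next 28.9), and the log2 of TRA clonotypes at equal depth was 7.99, lowest among the ovary libraries (next 8.52). Tryptophan in TRA made up 0.752% in ovary number 13 (next 0.665%).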

How the results depend on the processing

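The higher mean overlap of matched numbers held under every alternative run, with TRA differences of 34.8 to 54.1 and TRB differences of 27.8 to 48.2 percentage points (shared clonotypes for the equal-depth setting). Calls on segments, lengths and residues depended on the setting. Without the replicate block, 0 J segments passed as lower and 0 length classes in edgeR, and 0 residues in limma, with 3, 2 and 3 features at an unadjusted p under 0.05. Deviations of J use from the organ means correlated between same-numbered organs at 0.763, 0.382, 0.0524, 0.633 and 0.561 over 53 segments, and 4 of 5 correlated best with their own number. J use alone did not show the pairing of number 10, whose brain library held 930 TRA counts. Its clonotypes did, since brain number 10 had a TRB overlap of 22.5% with its own ovary and at most 0.607% with another.

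J segments higher in the brain numbered 2 with DESeq2, and 0 to 1 with a number left out. J segments lower in the brain numbered 2 with DESeq2, 0 with part 1 alone, each clonotype once, no largest clonotype or all 10 brain numbers, and 0 to 2 with a number left out. V names higher in the brain numbered 5 with no filter, 8 with DESeq2, 7 with all 10 brain numbers and 0 to 4 with a number left out, and those lower 1 with all 10 brain numbers and 0 to 1 with a number left out. Length classes called numbered 1 with no filter, part 1 alone or no single counts, 0 with part 2 alone or each clonotype once, and 0 to 2 with a number left out. Residues called numbered 0 with part 1 alone, each clonotype once or no TRBV19 chains (where isoleucine was under the floor and not fitted), 2 with the whole CDR3 or 4 residues trimmed at each end, and 0 to 2 with a number left out.

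Signs turned in 7 cases. The mean TRAJ number difference ran from -0.569 to 0.271 with a number left out (0.271 without number 12). TRB hydropathy was 0.00637 higher with each clonotype once, and TRAJ18 had a log2 difference of 0.0618 with no largest clonotype. TRAJ33 ran from -0.0921 (without number 3) to 0.39 with a number left out, and was -0.00934 with each clonotype once. TRB CDR3s of 6 residues had 2.49 with DESeq2 and those of 19 residues 0.0525 with part 1 alone. The cause was not tested. TMM scaling moved the median log2 difference of V names to -0.24 from 0.04 and of J segments to 0.03 from 0.15. Brain libraries of 622 to 1530 counts limit the precision for rare segments at numbers 3, 10 and 13.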
